A study of Mus musculus with 6 samples.

Results

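A set of 10 genes that govern how cells make and use histones were followed in MC38 tumour cells sorted from mouse livers, after diphtheria toxin (DT) or PBS. They are 6 genes for the transcription, 3′ end processing and decay of histone mRNA (Slbp, Npat, Casp8ap2, Lsm10, Lsm11 and Eri1) and 4 genes for replacement histones (H2az1 and H2az2 for H2A.Z, H3f3a and H3f3b for H3.3). All probes annotated to them were taken, which gave 10 of 19057 genes with a probe and 13 of the 45281 probes on the array. A probe was kept where at least 3 arrays had a detection p below 0.05. By this filter on dim signals, 8 of the 13 probes, for 6 of the 10 genes, were measured, among 17759 probes and 9483 genes in all.

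The DT group held 3 samples and the PBS group 3 samples, each measured on 1 Illumina bead array. Both groups were CD11bDTR transgenic mice, in which the CD11b promoter of myeloid cells drives the toxin receptor, so that the PBS mice carried the transgene too. MC38, a mouse colon carcinoma line, had been injected into the spleen to seed the liver. DT or PBS was given into the peritoneum on days 7 and 9, and livers were taken on day 10. The labels give neither the age of the mice, the dose of DT and the sort gate, nor whether a sample is 1 mouse or a pool. The p-values therefore describe the scatter among these 6 samples, part of which can be technical.

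Cells that copy their DNA need new histones at once, and the replication-dependent histone genes supply them in S phase. Their mRNAs end in a stem-loop and not in a poly(A) tail. NPAT switches these genes on as a target of the cyclin E kinase. FLASH (Casp8ap2) and the U7 particle with its subunits LSM10 and LSM11 are needed for the cut of the pre-mRNA behind the stem-loop. SLBP binds the loop for processing, export and translation, and the exonuclease ERI1 trims and helps to degrade the mRNA. The replacement histones H2A.Z and H3.3 are made throughout the cell cycle from ordinary polyadenylated mRNAs and enter chromatin outside replication. This bears on the measurement, because the RNA was amplified from oligo-dT: the replacement variants are primed at their tails, whereas how much of a replication-dependent histone signal comes from polyadenylated or internally primed copies cannot be told apart here.

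Across the arrays, mean signals were 363.1, 503.1 and 436.4 in DT and 473.1, 311.3 and 449.2 in PBS, and between 36.7% and 40.62% of probes were detected. DT replicate 2 was thus the brightest array and PBS replicate 2 the dimmest before normalization. Of the markers that define epithelial cells, Epcam, Krt18, Krt19, Cdx2 and Vil1 were not above background on any array, Krt8 was on all 6 and Cdh1 on 2 of 3 DT and 1 of 3 PBS arrays, while the mesenchymal marker Vim lay between 11.9 and 12.4 on the log2 scale. Markers of other cells moved between the groups. The summed normalized signal of 11 neutrophil genes was 2795 to 4247 in DT and 1586 to 2429 in PBS. Of these 11, S100a8, Lcn2 and Retnlg were called higher, 6 were positive and 5 negative, among them Csf3r at −0.50. Lcn2 and Retnlg were above background on 3 of 3 DT and 0 of 3 PBS arrays. They thus passed the filter through the DT arrays alone, and their PBS level is only a bound. The summed signal of 17 macrophage and monocyte genes was 2342 to 2858 in DT and 2809 to 6351 in PBS, where PBS replicate 3 alone lay within the DT range. Of these 17 genes 16 were negative and 0 passed. By an unadjusted p under 0.05 in limma, 12 were lower and 0 higher, where 23.9% of all genes passed in either direction. Adgre1 was above background on all 6 arrays and Itgam on none. The sum of 8 dendritic cell and MHC class II genes, of which H2-Ab1 and H2-Eb1 were called lower, was 1262 to 1692 in DT and 1842 to 3853 in PBS. The sum of 5 T and NK cell genes was 4076 to 5745 in DT and 7183 to 10281 in PBS, most of it from Prf1, the one called lower. Of the others, Nkg7 had a difference of −0.67, Klrd1 of −0.69, Cd3e of −0.086 and Cd8b1 of 0.23. Cd4, Cd8a, Cd2, Gzmb, Klrb1c and Ncr1 were not above background on any array. Among 3 endothelial genes, Ramp2 was called higher, while Flt1 lay lower without overlap at −0.55 (limma, adjusted p = 0.0835) and Clec4g had 0.035. Cdh5, Tek, Tie1, Vwf, Lyve1 and Emcn were not above background on any array. Summed over 9 stellate cell and fibroblast genes, normalized signal was 35323 to 37770 in DT and 23051 to 33876 in PBS. Of these 9 genes 0 passed, 7 were positive and 2 negative, Col1a1 at −0.14 and Col1a2 at −0.15. In a sorted bulk sample, fewer cells of a type and less RNA per cell cannot be told apart, and the part of these cells in the results below was not tested.

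The histone mRNA processing genes were mostly out of reach of the array. Slbp, the stem-loop binding protein, gave raw signals of 114.8, 116.3 and 124.3 in DT and 117.4, 111.6 and 122.5 in PBS, with detection values, where values near 0 mean a signal above the negative controls, of 0.871 to 0.979 in DT and 0.962 to 0.986 in PBS. No sample stood above background, so the probe gives no level for Slbp in either group and no fold change. The same held for Casp8ap2, with signals of 122.6, 129.7 and 116.5 in DT and 119.9, 117.9 and 144.7 in PBS. Eri1 was likewise not above background on any array, at 123.9, 136.8 and 138.8 in DT and 136.0, 127.0 and 135.2 in PBS. Lsm11 was above background in DT replicate 3 alone, at a signal of 163.6, with 139.7 and 146.8 in the other DT samples and 143.5, 137.5 and 158.4 in PBS. With 1 array detected it did not pass the filter and was not tested.

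**Figure D1:**
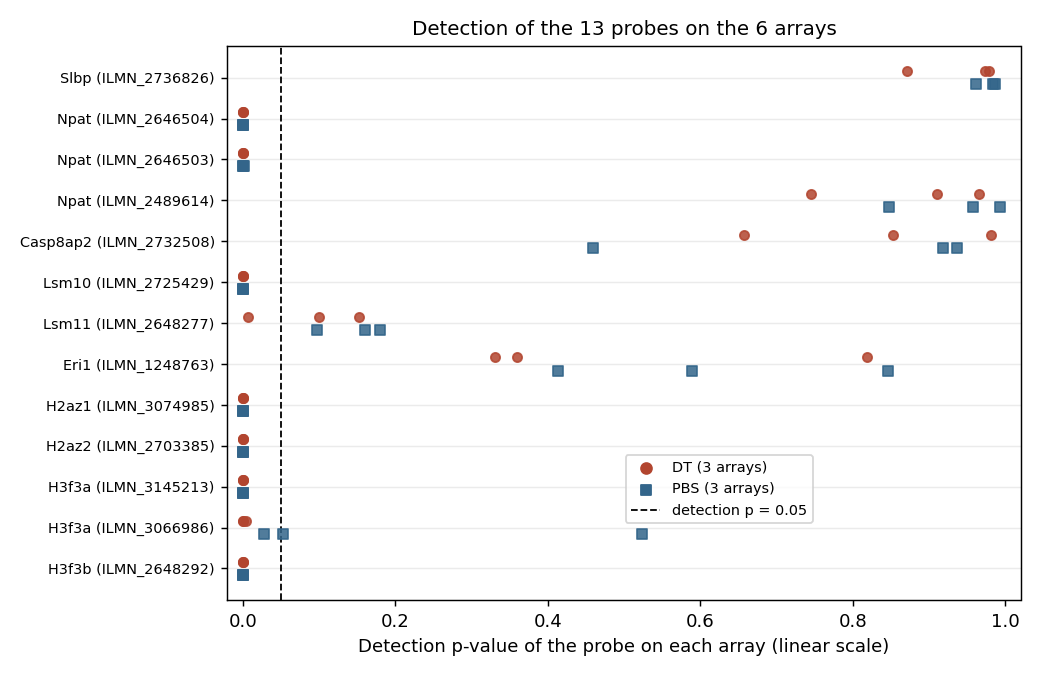
Detection p-value (x axis, linear) of each of the 13 probes (rows) on the 3 DT arrays (circles) and 3 PBS arrays (squares). The dashed line marks 0.05. The Slbp, Casp8ap2 and Eri1 probes and 1 Npat probe lie to its right on all 6 arrays, and the second H3f3a probe lies to its left on 3 DT arrays and 1 PBS array.

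Npat and Lsm10, the members of this machinery that could be measured, did not pass the test. The brightest Npat probe had normalized log2 signals of 7.11, 7.31 and 7.76 in DT and of 7.21, 7.86 and 7.78 in PBS. The groups overlapped, and replicate 1 was the lowest sample in each. The difference was −0.22 on the log2 scale (SE 0.22, 95% interval −0.72 to 0.27; limma, adjusted p = 0.576). Another Npat probe gave 6.05, 6.12 and 6.29 in DT and 6.23, 6.51 and 6.44 in PBS, a difference of −0.24 (SE 0.16; limma over all probes, adjusted p = 0.405), and the remaining Npat probe was not above background on any array. Lsm10, which the U7 particle carries in place of a common Sm protein, was above background on all 6 arrays. It stood at 10.54, 10.72 and 10.67 in DT and at 10.46, 10.62 and 10.60 in PBS, a difference of 0.087 (SE 0.14, interval −0.24 to 0.41; limma, adjusted p = 0.752). As a fold of DT over PBS, the 95% interval ran from 0.849 to 1.33 for Lsm10 and from 0.607 to 1.21 for Npat.

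The replacement variants lay higher in DT than in PBS in all 4 genes, by 0.23 to 0.46 on the log2 scale, but none of the 4 passed the test over all genes. Each kept this direction in all 17 other settings tried. Because these genes ran the same way, their start regions are shown. Sequences are from RefSeq (GRCm38.p6), which held a start for 9 of the 10 genes, with Eri1 not among them. Each is the 250 bases before a RefSeq transcript start, 5′ to 3′ on the gene's strand, and capitals mark the CCAAT box, CCAAT or its reverse complement ATTGG.
H2az1 (chr3:137864237-137864486, plus strand): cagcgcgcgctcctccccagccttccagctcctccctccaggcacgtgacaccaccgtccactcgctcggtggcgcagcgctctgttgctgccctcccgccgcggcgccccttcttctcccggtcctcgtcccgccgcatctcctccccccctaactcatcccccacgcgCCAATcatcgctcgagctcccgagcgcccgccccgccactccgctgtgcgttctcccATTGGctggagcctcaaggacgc
H2az2 (chr11:6444444-6444693, minus strand): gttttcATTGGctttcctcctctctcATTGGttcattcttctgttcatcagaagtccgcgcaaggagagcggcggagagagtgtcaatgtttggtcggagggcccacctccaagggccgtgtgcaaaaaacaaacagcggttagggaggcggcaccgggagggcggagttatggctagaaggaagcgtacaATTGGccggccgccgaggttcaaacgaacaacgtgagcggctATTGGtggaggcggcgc
H3f3a (chr1:180813606-180813855, minus strand): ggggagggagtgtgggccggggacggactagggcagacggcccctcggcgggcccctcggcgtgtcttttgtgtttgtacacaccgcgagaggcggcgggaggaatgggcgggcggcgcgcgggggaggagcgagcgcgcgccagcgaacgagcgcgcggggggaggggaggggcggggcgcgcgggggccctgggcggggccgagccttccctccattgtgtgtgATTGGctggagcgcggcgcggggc
H3f3b (chr11:116024505-116024754, minus strand): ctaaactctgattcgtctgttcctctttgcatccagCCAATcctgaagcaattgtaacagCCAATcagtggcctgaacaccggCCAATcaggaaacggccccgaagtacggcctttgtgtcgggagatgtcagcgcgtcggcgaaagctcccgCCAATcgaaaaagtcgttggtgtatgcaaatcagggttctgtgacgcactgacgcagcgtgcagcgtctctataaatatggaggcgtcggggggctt
The H3f3b and H2az2 windows hold 4 CCAAT boxes each, H2az1 holds 2 and H3f3a 1. Of all 32851 RefSeq start windows of this length, 33.8% hold at least 1, 10.1% at least 2 and 2.79% at least 3. Slbp also holds 3, Npat and Casp8ap2 2 each, Lsm10 1 and Lsm11 0. The H3f3b window alone among the 4 variants has a TATAAA on either strand, which 12.4% of windows have. None of the 4 holds an E2F site in the forms TTTCCCGC, TTTCGCGC, TTTGCCGC or TTTGGCGC on either strand, which 1.86% of windows hold. Such matches describe letters and not binding.

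H3f3b, 1 of the 2 H3.3 genes, had raw signals of 8151, 14185 and 10382 in DT and 8145, 4516 and 8596 in PBS. After normalization it stood at 13.24, 13.42 and 13.25 in DT, against 12.78, 12.76 and 12.98 in PBS. Every DT sample lay above every PBS sample. Before normalization the groups overlapped, with DT replicate 1 level with PBS replicate 1 and below PBS replicate 3. The difference was 0.46 (SE 0.15, 95% interval 0.13 to 0.79), or 1.38-fold, with an unadjusted p = 0.011 and an adjusted p = 0.113 in limma. It passed in 2 other settings, with no background correction (adjusted p = 0.0332) and with an intensity trend (adjusted p = 0.0264).

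H3f3a encodes the same H3.3 protein from another locus. Its bright probe gave 11.56, 11.76 and 11.28 in DT and 11.19, 11.30 and 11.19 in PBS, and DT replicate 3 fell within the PBS range. The difference was 0.31 (SE 0.16, interval −0.057 to 0.67; limma, adjusted p = 0.281). Another H3f3a probe gave 6.11, 6.12 and 5.58 in DT and 5.17, 4.57 and 5.08 in PBS. It differed by 1.00 (SE 0.22; limma over all probes, adjusted p = 0.0528), without overlap of the groups. It lay above background on all 3 DT arrays but on 1 of the 3 PBS arrays, so that it passed the filter mainly through the group where it is high. Without DT replicate 3 the same probe passed (limma, adjusted p = 0.0332), as it did in 5 other settings. Its difference was 0.56 with a normexp offset of 50 and 0.30 with no background correction, where the first H3f3a probe also had 0.30, and it did not pass in the second of these settings. Because its PBS values were mostly at background, its difference is given as a description. Many processed copies of H3.3 and H2A.Z genes lie in mammalian genomes, and whether these probes measure the parent genes alone was not tested.

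H2az1, the main H2A.Z gene of most tissues, stood at 11.73, 11.90 and 11.77 in DT and at 11.53, 11.36 and 11.62 in PBS. After normalization the groups did not overlap, and PBS replicate 2 was lowest. Before it they overlapped, as DT replicate 1 at 2782 lay below PBS replicate 1 at 3703 and PBS replicate 3 at 3464. The difference of 0.30 (SE 0.15, interval −0.031 to 0.63) had an adjusted p = 0.248 in limma. H2az2, which encodes a nearly identical H2A.Z protein, gave 8.85, 9.15 and 8.80 in DT and 8.62, 8.82 and 8.68 in PBS, where DT replicate 3 lay just below PBS replicate 2. Its difference was 0.23 (SE 0.16, interval −0.12 to 0.58; limma, adjusted p = 0.399). DT replicate 2 was the highest sample for all 4 variants.

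**Figure D2:**
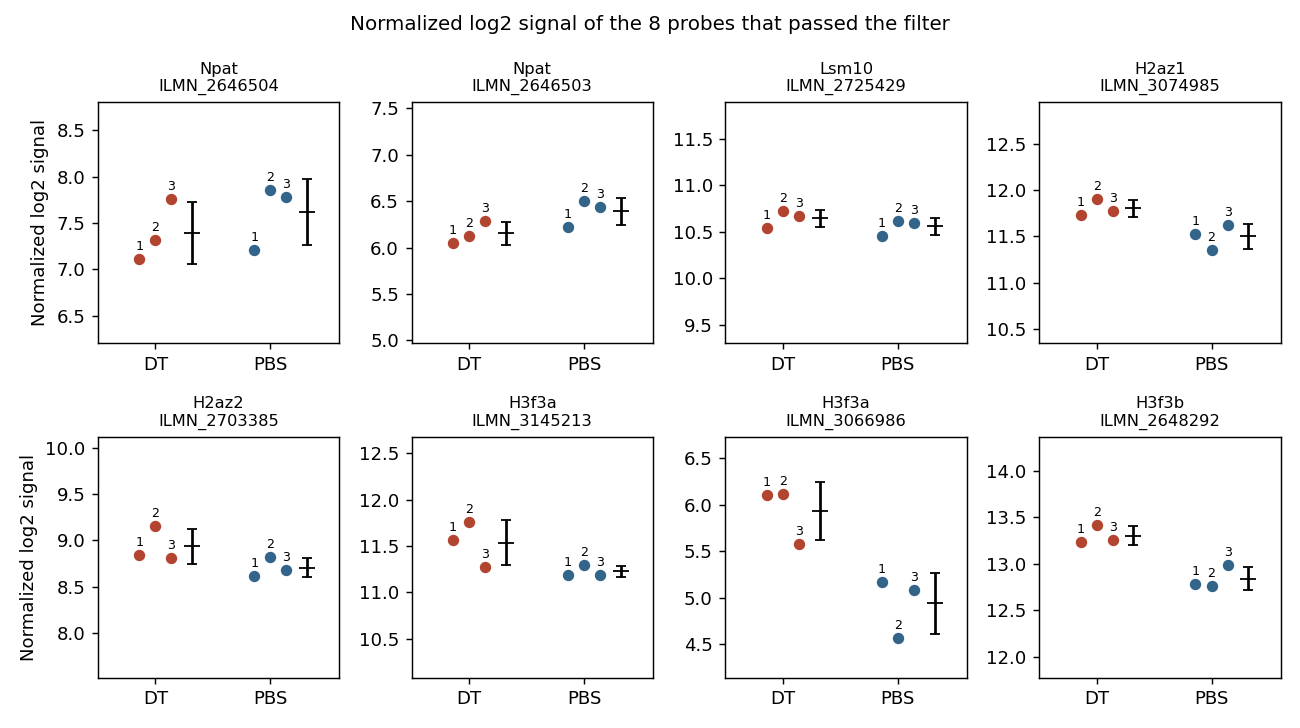
Normalized log2 signal (y axis, the same length of scale in each panel) of the 8 probes that passed the filter, in DT (left) and PBS (right). Points are arrays numbered by replicate, and bars are the mean ± SD (n = 3 each). H3f3b, H2az1 and the second H3f3a probe have no overlap between the groups.

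In count, 0 of the 6 measured genes and 0 of the 8 measured probes passed an adjusted p of 0.05 in limma, where 1.09% of all genes (0.327% as higher in DT) and 1.35% of all probes did. By the unadjusted p under 0.05, 1 gene, H3f3b, passed as higher, where 23.9% of all genes passed and 12% passed as higher. In 2 of the 6 genes the DT samples lay above the PBS samples without overlap, as they did in 15% of all genes, and no member lay below without overlap (28.9% of all genes had no overlap in either direction). The median difference was 0.30 over the 4 variants and 0.011 over all genes tested. The members of each pair did not separate from each other. H2az1 minus H2az2 was 2.87 ± 0.11 in DT and 2.8 ± 0.22 in PBS (SD, n = 3 each), a shift of 0.070 (exact permutation test, two-sided, p = 0.8). H3f3a minus H3f3b was −1.77 ± 0.18 in DT and −1.62 ± 0.17 in PBS (SD, n = 3 each), a shift of −0.15 (exact permutation test, two-sided, p = 0.4). The smallest p such a test can give with 3 against 3 is 0.1, and the shift for H2A.Z turned to −0.059 without PBS replicate 2.

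**Figure D3:**
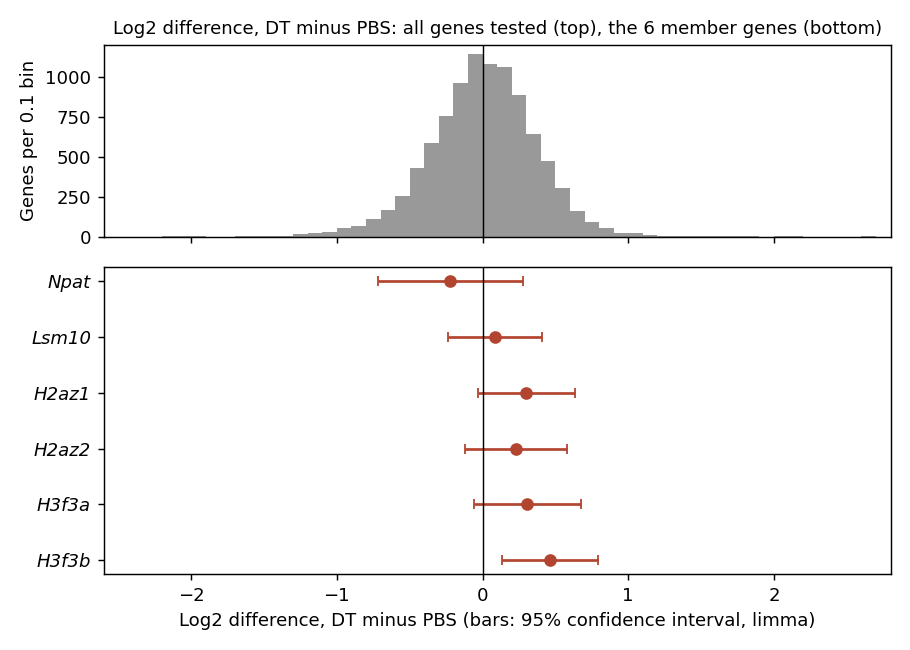
Log2 difference, DT minus PBS (x axis), as a histogram of all 9483 genes tested (top, genes per bin of 0.1) and for the 6 measured member genes (bottom, points with 95% confidence intervals from limma). The interval of H3f3b, 0.13 to 0.79, lies above 0, and the other 5 intervals include 0.

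The replication-dependent histone genes, whose mRNAs the processing machinery serves, went the other way on the same arrays. Of 50 measured, 24 passed the threshold as lower in DT and 0 as higher, where 0.759% of all genes passed as lower. A negative difference was found in 47, with a median of −0.86, while 51.28% of all genes had a positive one. Histone genes of nearly the same sequence may cross-hybridise, so the 50 are not separate measurements. The 3 with the smallest p were H4c4 at −1.18, H4c12 at −1.08 and H4c8 at −1.01 (limma, adjusted p = 0.0212, 0.035 and 0.035), and H2ac6 had −1.93 (adjusted p = 0.0417). All 12 measured H4 genes and 8 of 12 H2B genes passed as lower, and 4 of 15 H2A and 0 of 9 H3 genes did. The H2A and H3 genes were still mostly negative, 15 of 15 H2A with a median of −0.46 and 8 of 9 H3 with a median of −0.61. The 2 measured H1 genes went opposite ways, at −0.81 and 0.68, and 0 passed. The count of 24 was 0 without DT replicate 1, DT replicate 2 or PBS replicate 2, 4 without PBS replicate 1, 5 without PBS replicate 3, 5 when replicate numbers were fitted as blocks, 1 under scaling to a common median and 0 without the filter or in an unmoderated linear model, while the median lay between −1.01 and −0.70 in all settings tried.

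Set against its own replication-dependent family within each array, H3f3b lay at 0.96, 1.25 and 0.77 in DT, against −0.015, −0.053 and 0.068 in PBS, relative to the PBS mean of that difference. The H3 family, 9 genes, averaged 10.53, 10.43 and 10.74 in DT and 11.05, 11.07 and 11.17 in PBS. The shift of 0.99 between the groups exceeded the SDs of 0.24 in DT and 0.062 in PBS, and the exact permutation test gave p = 0.1, its smallest possible value. H2az1 against the H2A family, 15 genes, shifted by 0.93 (0.90, 1.24 and 0.65 in DT against 0.055, −0.048 and −0.0073 in PBS; exact permutation p = 0.1). The H2A family averaged 11.44, 11.27 and 11.72 in DT and 12.07, 12.01 and 12.23 in PBS. H3f3a and H2az2 shifted by 0.84 and 0.86 against the same families (exact permutation p = 0.1 each). Each shift holds the lower family mean in DT as well as the variant's own difference, which was only 0.23 to 0.46. These 4 comparisons were chosen after the values were seen, so their p-values are given as a description. By Benjamini-Hochberg over the 4 each p stays at 0.1, which does not allow for that choice. For H3f3b and H2az1 this p was fixed in advance. Every DT sample already lay above every PBS sample for these variants, and below every PBS sample for their family means. DT replicate 2 was highest for the 4 variants and lowest for the H3, H2A, H2B and H4 family means. For the mean of the 2 H1 genes DT replicate 1 was lowest, at 8.42.

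**Figure D4:**
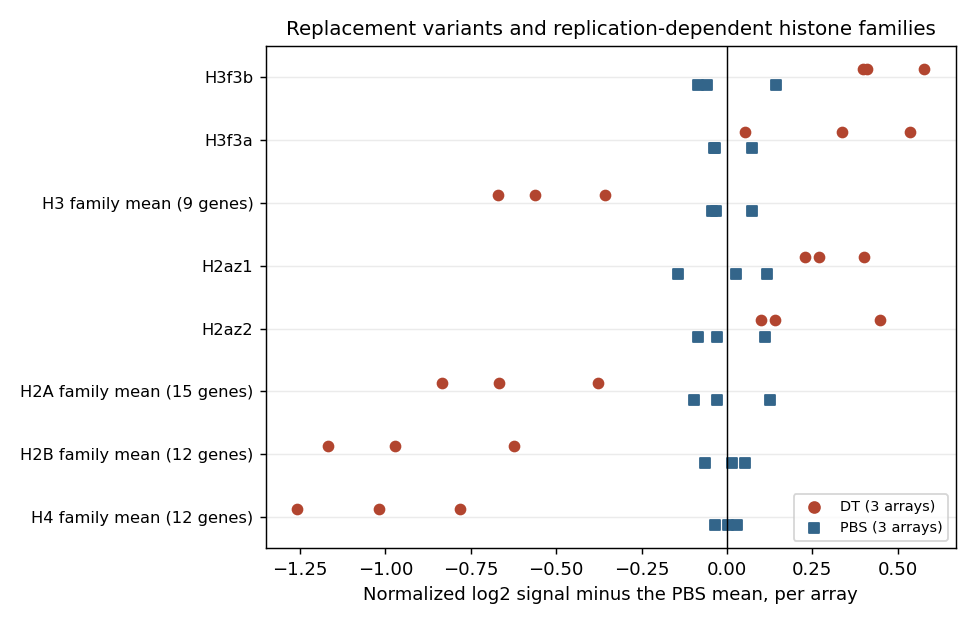
Normalized log2 signal of the 4 replacement variants and of the mean of the replication-dependent H3, H2A, H2B and H4 families (rows), minus the PBS mean, per array (x axis). The 3 DT arrays (circles) lie above the PBS mean for each variant and below all PBS arrays (squares) for each of these 4 families.

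The rest of the histone supply chain showed no gene past the threshold: of 105 measured genes in 7 lists, 0 passed in limma, and 9 higher and 15 lower had an unadjusted p under 0.05. Over all genes 1.09% passed and 23.9% had an unadjusted p under 0.05, so that these counts were near the background. Without DT replicate 3, 6 passed. Among 30 genes of histone mRNA 3′ end formation, export, translation and decay, 19 were positive and 11 negative, with a median of 0.042. The uridylyltransferase Tut4, which marks RNAs including histone mRNAs for decay, stood at 4.71, 4.74 and 4.95 in DT and 5.51, 5.42 and 5.38 in PBS, with an adjusted p = 0.0573 in limma. It was above background on 0 of 3 DT and 3 of 3 PBS arrays, so that it passed the filter through the PBS arrays alone and its DT level is only a bound. Sympk, the scaffold of the cleavage complex, gave −0.48 (adjusted p = 0.102 in limma), and Cpsf3, its endonuclease, 0.60 (adjusted p = 0.125), each without overlap of the groups.

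Among the genes that place H2A.Z in chromatin or remove it, 0 of 11 measured passed. Of the 11, 8 were negative, with a median of −0.30 beside 0.011 over all genes, and 4 had an unadjusted p under 0.05 as lower and 1 as higher, where 23.9% of all genes had one in either direction. Ruvbl2, an ATPase of the remodelling complexes, gave 9.32, 8.54 and 9.65 in DT and 9.90, 10.13 and 9.69 in PBS, without overlap and with DT replicate 2 lowest, a difference of −0.74 (SE 0.26; limma, adjusted p = 0.133). Znhit1 and Dmap1, further subunits of such complexes, gave −0.51 and −0.46 (adjusted p = 0.123 and 0.141 in limma). For H3.3, 6 of 8 loading genes were measured, with a median of −0.065 and with overlapping groups in each. Daxx, its chaperone at repeats, gave −0.24 and Hira, its chaperone at genes, −0.16 (adjusted p = 0.501 and 0.648 in limma). Ubn1, a partner of Hira, gave 0.17 (adjusted p = 0.654), and Atrx, the partner of Daxx, did not pass the filter.

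Chaperones that load histones behind the replication fork split in direction, with 6 positive and 8 negative of 14. Chaf1b, a subunit of chromatin assembly factor 1, stood at 8.38, 8.14 and 8.68 in DT and 9.17, 9.06 and 9.36 in PBS, a difference of −0.80 (SE 0.18; limma, adjusted p = 0.0568). The histone-binding protein Rbbp7 gave 0.77 (SE 0.19, adjusted p = 0.0646) and the H3-H4 chaperone Asf1b 0.66 (SE 0.23, adjusted p = 0.124 in limma). Of the other replacement histones 4 of 8 were measured, 3 negative and 1 positive. H2aj gave −0.47, Macroh2a1 −0.13, the centromeric Cenpa −0.019 and H2ax 0.098 (limma, adjusted p = 0.125, 0.807, 0.96 and 0.741).

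Genes of DNA replication, which run in S phase alongside histone synthesis, had a median of −0.029 over 27 measured, 13 positive and 14 negative. Rpa2, a subunit of the protein that coats single-stranded DNA, gave −0.91 and Mcm10 −0.61, while the thymidylate synthase Tyms gave 0.49 (limma, adjusted p = 0.0568, 0.104 and 0.102). Mitosis genes had a median of −0.045 over 14, with −0.95 for Top2a, 0.46 for Kif11 and −0.43 for Plk1 (limma, adjusted p = 0.0573, 0.154 and 0.191). The medians of both lists thus lay close to that of all genes, with single genes differing in either direction.

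**Figure D5:**
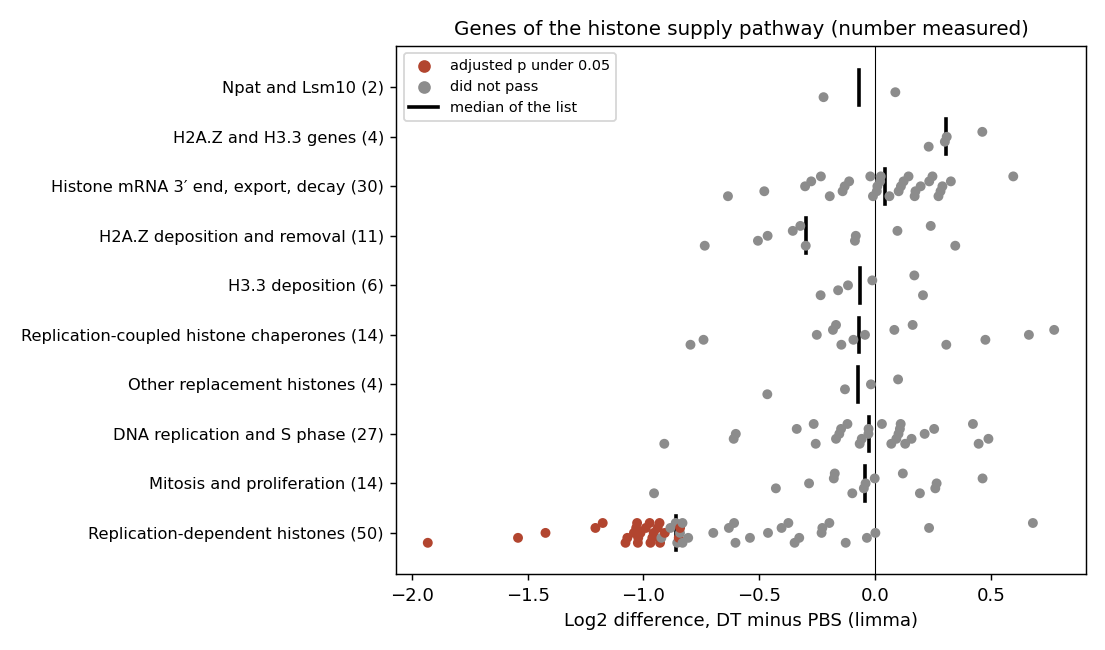
Log2 difference, DT minus PBS (x axis), of each measured gene by list (rows, number measured in brackets). Red points have an adjusted p under 0.05, grey points did not pass, and black bars are medians. All red points lie among the replication-dependent histones, and the 4 H2A.Z and H3.3 genes have a median of 0.30.

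The genes whose pattern over the 6 arrays was most like that of H3f3b, the member with the smallest p, were Prps2 (Pearson r = 0.996), Rabif (0.99) and Psmc1 (0.988). Prps2, which makes the ribose precursor of nucleotides, stood at 8.44, 8.67 and 8.44 in DT and at 7.98, 7.89 and 8.14 in PBS. They are the highest of 9482 genes compared over only 6 arrays, of which 88 had an r of at least 0.95. The values describe these arrays and are given without a test.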

How the data were processed

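Total RNA of sorted cells was amplified with an oligo-dT based kit and labelled with biotin, per the labels' protocols. Per the file headers, the deposited non-normalized table holds for each probe an average signal, which is an intensity, with its detection p-value. A second deposited table holds log2 values that the authors normalized. How they were made is not given in the sources used here, and they served as an alternative. Scanner and software are likewise not given.

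Probes were named from the platform annotation with symbols updated through Entrez identifiers (34885 with 1 gene, 18 with several, 10378 with none). Signals were processed in R 4.3.3 by the neqc function of limma 3.58.1 (normexp background from the detection p-values, offset 16, quantile normalization, log2), which shrinks differences of dim genes and removes shifts shared by all. A probe needed 3 arrays with a detection p below 0.05, and each gene was taken at its brightest probe. The contrast of DT over PBS was fitted with lmFit and eBayes over all genes, and over all 17759 probes, two-sided, with Benjamini-Hochberg adjustment and a threshold of 0.05. Single within-array differences were tested by exact permutation. No 2 arrays had identical signals. Precision is limited by how few arrays there are. The procedure was tested on simulated data, in which the added differences were larger than those of the 4 variants. It therefore does not show whether differences of their size would be found. Figures were drawn with matplotlib 3.10.9.

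Members and lists were chosen with earlier results of these data known. The text names every member and, of each pathway list, the 3 genes with the smallest p, as none passed. Of the replication-dependent histone genes past the threshold it names 4 and gives the rest as counts, and of the marker lists it names those past the threshold. H2ac6, Cenpa, Atrx, Csf3r, Cd8b1, Cd3e, Nkg7, Klrd1, Flt1, Clec4g, Col1a1 and Col1a2 were named after their values were seen. Replicate numbers recur in both groups, but same-numbered samples did not deviate together (correlations of −0.102, −0.179 and 0.0301), so the comparison was not paired.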

Additional observations from a re-analysis of the deposited data

How the results depend on the processing

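The call of 0 member genes held in 15 of 17 other settings, and it was 1, H3f3b, with no background correction and with an intensity trend. Each of the 6 measured members kept its sign in all 17, H3f3b between 0.40 and 0.68 and H2az1 between 0.23 and 0.52. The count of 0 member probes was 1 with a normexp offset of 50, no background correction, the deposited normalized values, a detection p under 0.01 or array weights, 2 with an intensity trend and 0 to 1 with each array left out. The probe was that of H3f3b with no background correction and otherwise the second H3f3a probe, and both passed with the trend. This H3f3a probe was above background on 3 DT arrays and 1 PBS array. At a detection p under 0.01 it was detected on DT arrays alone. The 0 pathway genes were 6, 5, 3, 3 and 10 under the same 5 settings in that order, 8 with the trend and 0 to 6 with an array left out. Over all genes the 103 calls were 654, 558, 313, 264 and 1059 under those 5, 772 with the trend, 27 with median scaling, 30 under the block described next and 0 to 375 with an array left out. In limma they were 0 without DT replicate 2 and with no filter, and 0 in an unmoderated linear model, where 1284, 2942 and 1781 genes had an unadjusted p under 0.05. With the replicate number as a block, 0 member genes, 0 member probes, 0 pathway genes and 30 genes in all passed, H3f3b gave 0.46 (limma, adjusted p = 0.18), and the paralogue shifts were 0.070 and −0.15. The sample titles do not say whether equal numbers pair the samples. With an array left out, the H2az1 minus H2az2 shift ranged from −0.059 to 0.14, the negative value without PBS replicate 2, and the H3f3a minus H3f3b shift from −0.24 to −0.051. The cause was not tested. Of the calls over all genes, 30.1% were higher in DT, against 46.5% with offset 50, 47.5% with no background correction, 48.2% with the deposited values and 74.1% with median scaling. The 24 replication-dependent histone genes were 38 with the trend and 37 with array weights. Median scaling moved the median of all genes to 0.17, and H3f3b then gave 0.68. The shifts of H3f3b and H2az1 against their replication-dependent families, added after the data were seen, lay between 0.86 and 1.10 and between 0.77 and 1.07. Signal over background limits Slbp, Casp8ap2, Eri1 and Lsm11, for which no difference was detectable.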
